A study of Oryza sativa with 27 samples.

Results

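Rice (Oryza sativa) embryosacs at 3 days after pollination (DAP) were compared between their top and bottom parts. The 5 arrays carrying those labels, 2 of the top part and 3 of the bottom part, were taken from the 27 arrays of a study of unpollinated material and of 1 to 4 DAP. Plants had been grown in a paddy field, and no mutation, transgene or treatment was named for any group. Each structure had been cut into a bottom part, 1/4 of it, which per the labels held the embryo, and a top part, the other 3/4, said to be mainly endosperm. Labelled RNA of 1 sample went onto each Affymetrix rice array. Replicates are described as biological, but no plant or panicle is named, so p-values measure the spread between these samples, which may be technical in part.

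In cereals, double fertilisation starts an embryo and an endosperm inside the ovule, and maternal tissues (nucellus, integuments and the ovary wall) surround both. The early endosperm first divides its nuclei without cell walls and later forms cells and stores starch and protein. KNOX homeobox genes such as OSH1 mark shoot meristem and embryo shoot regions, class B MADS-box genes specify lodicules and stamens, and sugar and mineral carriers load the growing seed. Each array held a mixture of tissues, so fewer cells of a type and less RNA per cell cannot be told apart.

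The values were deposited probe set intensities, in which 1 equals the 75th percentile of the same array. Differences are given as top minus bottom on the log2(value + 0.13) scale with their standard error (SE). That scale understates the difference of genes with low values, and no level of background was available to say that a low value means absence. A probe set was called at a Benjamini-Hochberg adjusted p under 0.05 over all probe sets tested, in limma's moderated test with all 27 arrays in 1 fit, and a gene is given by its brightest tested probe set.

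Bottom replicate 3 stood apart from its group before any gene was compared. Over the tested probe sets it correlated with bottom replicates 1 and 2 at r = 0.863 and 0.902, against 0.97 between those replicates and 0.962 between the top arrays. Its correlations with bottom replicate 3 of 2 DAP (0.953) and of 4 DAP (0.936) were above those with its own group. Bottom replicate 1 correlated at 0.954 with each top array. The 18S ribosomal RNA control differed between the parts, at 0.2, 2.37 and 9.26 on the bottom arrays and 23.9 and 25.4 on the top arrays. With the 18S signal as a covariate 2440 probe sets were called. The 5.8S ribosomal RNA control read 1.39, 2.52 and 26.8 on bottom replicates 1, 2 and 3 and 1.57 and 3.32 on the top arrays. The ratio of the 3′ to the 5′ probe set of the Gapdh control, a measure of RNA integrity, was 3.68 to 4.62 on the bottom arrays and 4.15 and 5.87 on the top arrays. For the actin control it was 2.11, 4.68 and 3.99 on the bottom arrays and 3.25 and 2.82 on the top arrays. Calls below are therefore given with and without bottom replicate 3. The genes of largest difference were chosen among those called in both fits whose arrays did not overlap between the parts. For them these traits were fixed by the choice.

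Of 29332 probe sets tested, 1572 (5.36%) were called between the parts, 1111 (3.79%) higher in the top part and 461 (1.57%) lower there. Over the 15275 genes these were 1026 (6.72%), 740 higher (4.84%) and 286 lower (1.87%). Without bottom replicate 3 the calls fell to 541 probe sets (1.84%), 322 higher (1.1%) and 219 lower (0.747%). Over genes the calls fell to 331 (2.17%), 198 higher (1.3%) and 133 lower (0.871%). Both fits called 296 genes, 192 higher and 104 lower in the top part. A further 730 genes were called only with bottom replicate 3 present, 548 higher and 182 lower in the top part. The arrays of the parts did not overlap for 36.9% of all genes tested, 22.5% with the top part higher and 14.4% with it lower. The counts also moved with the other arrays: 70 probe sets were called without top replicate 1 and 3530 without bottom replicate 1. Leaving out bottom replicate 2 gave 1044 and top replicate 2 gave 1272. The share of calls higher in the top part was 70.7% with all arrays and 59.5% without bottom replicate 3, and only without top replicate 1 among the leave-one-out fits was the lower side the larger (21 higher, 49 lower). The fit without bottom replicate 1 called 2348 probe sets higher and 1182 lower in the top part, and list counts from that fit stand against these. A fit of the 5 arrays alone called 19 probe sets, all lower in the top part. In the fit of all arrays and all 5 leave-one-out fits, 27 genes were called each time, 8 higher and 19 lower.

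**Figure D1:**
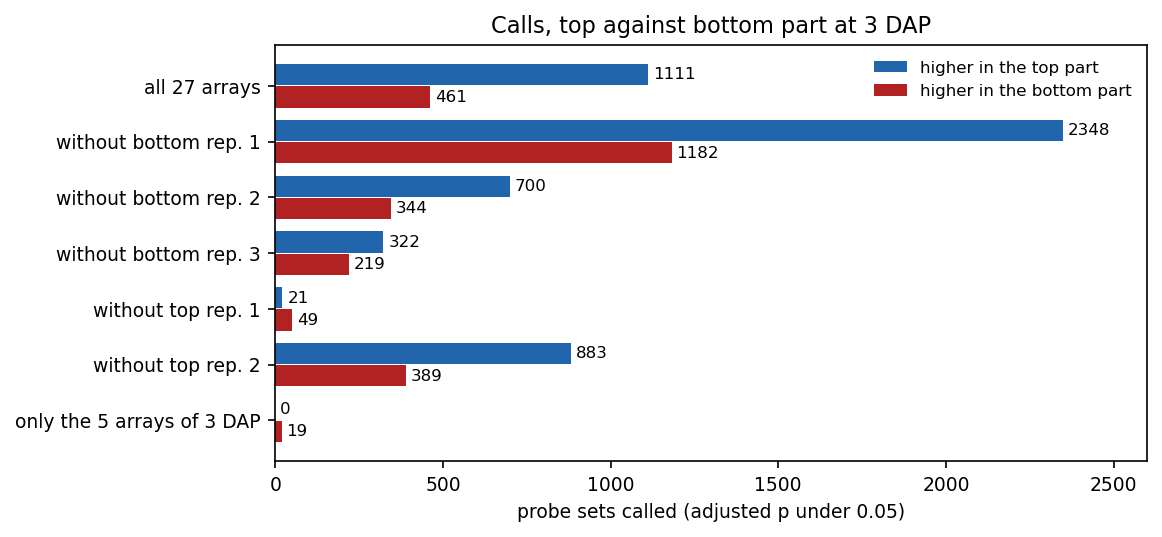
Number of probe sets called (x axis, adjusted p under 0.05) as higher in the top part (blue) or in the bottom part (red) at 3 DAP, with all 27 arrays, without each 3 DAP array in turn and with the 5 arrays alone. The count higher in the top part runs from 2348 without bottom replicate 1 to 21 without top replicate 1 and 0 with the 5 arrays alone.

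Genes of meristem and floral organ identity were among the clearest differences, and most of those called lay on the bottom side. OSH1 (LOC4333973), a KNOX homeobox factor of the shoot meristem, read 4.87, 4.96 and 5.0 on bottom replicates 1, 2 and 3 and 0.0468 and 0.0722 on top replicates 1 and 2. The bottom arrays were close to each other and far above both top arrays. Its log2 difference was -4.75 ± 0.28 (SE, adjusted p = 4.23e-09) and -4.74 without bottom replicate 3 (adjusted p = 6.58e-08). OSH71 (LOC4337701), another KNOX factor, read 3.75, 3.34 and 1.67 in the bottom part against 0.272 and 0.276 in the top part. Bottom replicate 3 was the lowest of its group and still above both top arrays (log2 -2.84 ± 0.38, adjusted p = 0.000415; -3.18 and 0.000113 without it). OSH45 (LOC4345191), of the same homeobox family, was also called, at 1.44, 1.74 and 2.67 against 0.543 and 0.508 (log2 -1.62 ± 0.29, adjusted p = 0.0034; -1.39 and 0.0183 without bottom replicate 3, but 0.0706 without top replicate 1).

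The list of embryo patterning factors held 20 tested genes of 29 matched. OSH1, OSH71 and OSH45 were called, all lower in the top part, where 1.87% of all genes were (0.871% without bottom replicate 3). The list's median log2 difference was -0.416, against 0.0547 over all genes tested. Leaving out bottom replicate 3 gave 4 calls, the added gene being HOS66 (LOC4331449), another homeobox gene of the list, at 0.659, 0.795 and 0.3 in the bottom part and 0.18 and 0.124 in the top part (log2 -1.61, adjusted p = 0.0429). Arrays of the parts did not overlap for 10 of the 20, each lower in the top part, where 14.4% of all genes tested had that pattern. The HAP3 subunits of the CCAAT-binding complex, tested in this list or among endosperm factors, were not called: OsHAP3A, OsHAP3B, OsHAP3C and OsHAP3F had log2 differences between -0.1 and 0.01.

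Both called class B floral genes lay on the same side. OsMADS16 (LOC4342047, also SPW1), a class B factor of stamen and lodicule identity, read 3.67, 4.74 and 3.53 in the bottom part and 0.265 and 0.232 in the top part. No array of the groups overlapped, and the difference was -3.43 ± 0.33 (adjusted p = 3.76e-06; -3.51 and 1.52e-05 without bottom replicate 3). OsMADS2 (LOC4325001), a PISTILLATA-type class B factor, read 6.6, 5.54 and 4.32 against 1.18 and 0.834 (log2 -2.3 ± 0.34, adjusted p = 0.000856; -2.46 and 0.00128). Its relative OsMADS4 did not share that pattern, with 4.2, 3.29 and 2.22 against 4.2 and 4.13 (log2 0.39 ± 0.34, adjusted p = 0.544). OsMADS14 (LOC4334140), of the AP1-type factors that act at the floral transition, went the other way, at 0.985, 0.673 and 0.836 against 1.78 and 1.81 (log2 1.01 ± 0.21, adjusted p = 0.00753; 1.02 and 0.0227 without bottom replicate 3; adjusted p = 0.125 without top replicate 1). Of 10 floral organ factors tested, 2 were lower and 1 was higher in the top part, with and without bottom replicate 3, and their median was 0.037. Over all genes 1.87% were called lower and 4.84% higher, and 0.871% and 1.3% without that array. Hd3a (LOC4340185), a florigen, read 1.29, 1.22 and 0.602 against 0.108 and 0.173 (log2 -2.06 ± 0.41, adjusted p = 0.00666; -2.37 and 0.00631 without bottom replicate 3, and 0.16 without top replicate 1).

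**Figure D2:**
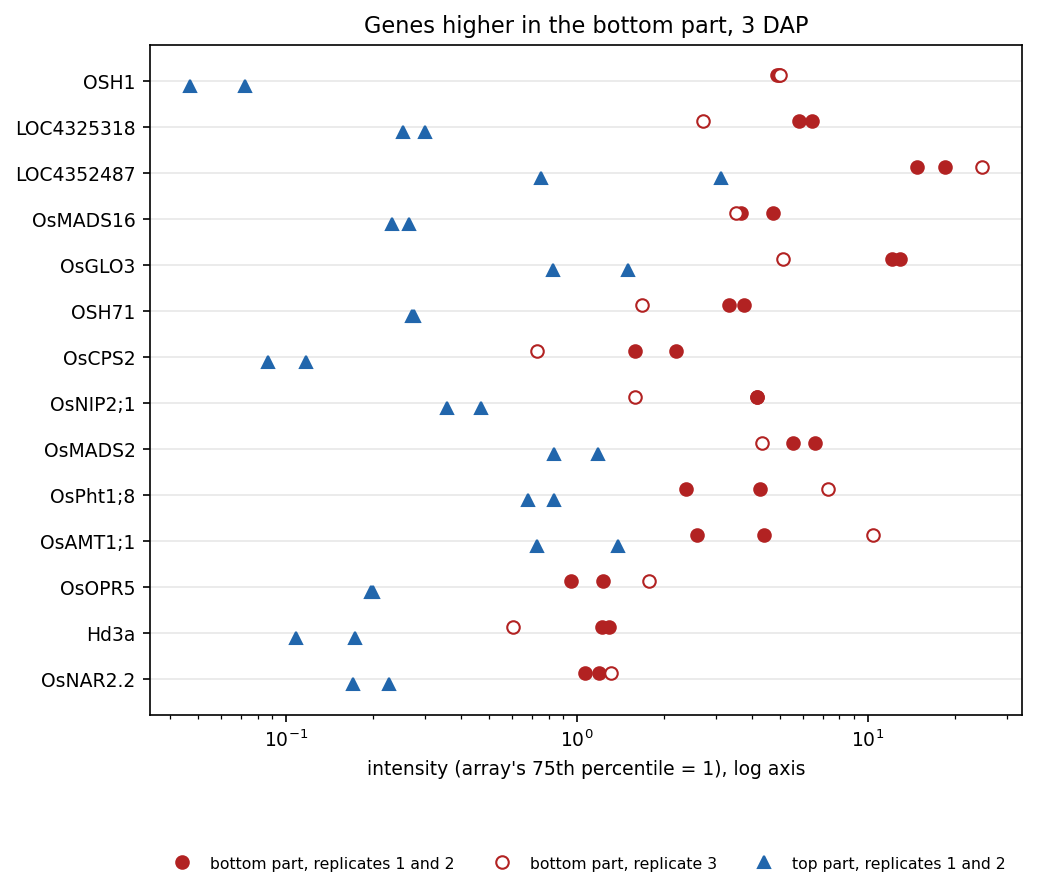
Intensity on a log x axis (the array's 75th percentile is 1) of the 14 genes of largest difference that were higher in the bottom part at 3 DAP, with bottom replicates 1 and 2 (filled red), bottom replicate 3 (open red) and both top replicates (blue triangles). Groups do not overlap for any of them, which was a condition of their choice. OSH1 reads 4.87 to 5.0 in the bottom part, and bottom replicate 3 is the highest bottom array for OsPht1;8 and OsAMT1;1 and the lowest for OSH71 and OsNIP2;1.

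Single carriers of nitrogen, phosphate and silicon were called on the bottom side. OsNAR2.2 (LOC4336175), a partner protein of high-affinity nitrate carriers, read 1.19, 1.07 and 1.31 in the bottom part and 0.17 and 0.226 in the top part. The groups did not overlap, and the difference was -2.01 ± 0.23 (adjusted p = 5.69e-05; -1.94 and 0.000291 without bottom replicate 3). OsPht1;8 (LOC4348741), a phosphate carrier, read 2.38, 4.25 and 7.3 against 0.837 and 0.679, and OsAMT1;1 (LOC4336365), an ammonium carrier, read 2.59, 4.39 and 10.4 against 0.729 and 1.39. For both, bottom replicate 3 was the highest array, and the differences were smaller without it: -2.29 ± 0.44 against -1.91 for OsPht1;8 (adjusted p = 0.00485 and 0.0279) and -2.15 ± 0.43 against -1.62 for OsAMT1;1 (0.00654 and 0.0295). OsAMT3;2 (LOC4334717), another ammonium carrier, read 0.597, 0.824 and 1.38 against 0.173 and 0.177 (log2 -1.73 ± 0.28, adjusted p = 0.00182; -1.45 and 0.0087). OsNIP2;1 (LOC4330713, also Lsi1), a silicon channel best known from roots, read 4.17, 4.18 and 1.59 against 0.47 and 0.357 (log2 -2.55 ± 0.55, adjusted p = 0.0106; -2.99 and 0.0087).

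In the fit without top replicate 1 the calls of OsPht1;8 (adjusted p = 0.0783), OsAMT1;1 (0.197), OsAMT3;2 (0.0543) and OsNIP2;1 (0.132) were lost, and that of OsNIP2;1 also without top replicate 2 (0.0593). OsNAR2.2 kept its call in every leave-one-out fit. Among 49 mineral and nitrogen transporters tested of 77 matched, a list without OsNAR2.2 and OsNIP2;1, 5 were lower in the top part and 1 was higher, where 1.87% and 4.84% of all genes were (median -0.245, with 13 differences positive). The other lower genes were the phosphate carrier OsPht1;1 (log2 -1.15 ± 0.27, adjusted p = 0.0177; 0.0922 without bottom replicate 3 and 0.261 without top replicate 1) and the nitrate carrier OsNRT2.3 (-1.44 ± 0.33, adjusted p = 0.014; 0.0808 and 0.28). With bottom replicate 3 left out, 4 were lower and 1 was higher (median -0.225), against 0.871% and 1.3% of all genes. Without bottom replicate 1 these were 9 and 1, in a fit that called 1182 of 29332 probe sets lower and 2348 higher. Over the leave-one-out fits the list's median stayed between -0.401 and -0.209. The gene on the top side was OsNramp5 (LOC4342859), a manganese and cadmium carrier of the root, at 1.11, 0.704 and 0.37 in the bottom part and 4.6 and 3.96 in the top part. Both top arrays lay well above every bottom array (log2 2.46 ± 0.46, adjusted p = 0.00411; 2.11 and 0.0234 without bottom replicate 3; adjusted p = 0.107 without top replicate 1). OsNramp3 (LOC9267339), of the same family, read 5.16, 4.0 and 1.27 in the bottom part against 1.31 and 1.2. It was called only without bottom replicate 3, which lay among the top arrays (log2 -1.76, adjusted p = 0.0147, against -1.18 ± 0.43 and 0.113 with it).

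Genes of diterpenoid phytoalexins, the antimicrobial compounds of rice, pointed to the bottom part, with 1 call. OsCPS2 (LOC9266189), which makes a diterpene precursor of phytoalexins, read 1.59, 2.19 and 0.732 in the bottom part and 0.117 and 0.0869 in the top part. The groups did not overlap (log2 -2.7 ± 0.68, adjusted p = 0.0239; -3.11 and 0.0303 without bottom replicate 3), but the call was lost without bottom replicate 2 (0.0755), top replicate 1 (0.209) or top replicate 2 (0.0946). It was the only called gene of the 11 tested, where 1.87% of all genes were called lower. CYP71Z7 (LOC4329726), a cytochrome P450 of the pathway, read 1.96, 2.62 and 0.525 against 0.137 and 0.118 (log2 -2.6 ± 0.82, adjusted p = 0.0673, against -3.22 and 0.0593 without bottom replicate 3). CYP99A3 (LOC4335091), a P450 of momilactone synthesis, read 1.33, 1.49 and 0.41 against 0.145 and 0.222 (log2 -1.8 ± 0.57, adjusted p = 0.0657), and passed without bottom replicate 3 (-2.3, adjusted p = 0.0393). All 11 had every bottom array above both top arrays, in a direction where 14.4% of all genes tested did not overlap, and their median was -0.909 (-1.05 without bottom replicate 3). In the RefSeq gene table (assembly ASM3414082v1) they fall into neighbouring groups, 6 on chromosome 2 with at most 2 other coding genes between consecutive members and 5 on chromosome 4 with at most 1, so they are not spread evenly over the genome.

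Other bottom-side genes were of mixed function. OsOPR5 (LOC4340485), of the 12-oxophytodienoate reductase family, read 0.954, 1.23 and 1.77 in the bottom part and 0.199 and 0.197 in the top part (log2 -2.1 ± 0.35, adjusted p = 0.00228; -1.89 and 0.0125 without bottom replicate 3; 0.0575 without top replicate 1). OsGLO3 (LOC4337048), named for glycolate oxidase, a photorespiratory enzyme, read 12.1, 12.9 and 5.11 against 0.828 and 1.5 (log2 -2.91 ± 0.52, adjusted p = 0.0032; -3.34 and 0.0026 without bottom replicate 3; 0.125 without top replicate 1). OsCPS1 (LOC4329013), which acts at the first committed step of gibberellin synthesis, was the called gene among 11 gibberellin genes, at 0.262, 0.428 and 1.05 against 0.0926 and 0.0841 (log2 -1.54 ± 0.33, adjusted p = 0.0106; -1.1 and 0.0478; 0.147 without top replicate 1 and 0.052 without top replicate 2). Its top values lie below the pseudocount of 0.13, and 1.87% of all genes were called lower in the top part. LOC4325318, which has no name, read 6.44, 5.8 and 2.72 against 0.302 and 0.252 (log2 -3.57 ± 0.44, adjusted p = 0.000163, and -3.94 and 7.43e-05 without bottom replicate 3). Its other probe sets gave -3.48 (adjusted p = 8.64e-06) and -0.32 (adjusted p = 0.437). LOC4352487, also without a name, read 14.8, 18.4 and 24.8 against 0.751 and 3.13, so its top arrays stood apart from each other (log2 -3.49 ± 0.55, adjusted p = 0.00165; -3.3 and 0.00766; 0.102 without top replicate 1).

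Of the 730 genes called only with bottom replicate 3 in the fit, 548 were on the top side and 182 on the bottom side. The 5 given here had the largest differences in either direction among named genes that depended on that array, and all lay on the bottom side. salT (LOC4326471), a mannose-binding lectin first described as salt-induced, read 9.62, 24.9 and 114 in the bottom part and 0.788 and 0.694 in the top part. Every bottom array was above every top array, but the bottom arrays were spread widely (log2 -5.12 ± 1.29, adjusted p = 0.0243; -4.17 and 0.131 without bottom replicate 3). OsMST3 (LOC4342198), a monosaccharide carrier, read 1.15, 3.97 and 24.3 against 0.282 and 0.473 (log2 -3.34 ± 0.97, adjusted p = 0.0488; -2.2 and 0.264). OsSWEET4 (LOC4329093), a sugar exporter of seed filling, read 14, 24.5 and 70.9 against 4.99 and 5.69 (log2 -2.41 ± 0.54, adjusted p = 0.0134; -1.77 and 0.0739). OsChia1c (LOC4342114), a chitinase, read 1.4, 3.6 and 6.26 against 0.226 and 0.638 (log2 -2.66 ± 0.77, adjusted p = 0.0461; -2.19 and 0.211), and OsAOX1A (LOC4336874), the alternative oxidase of mitochondria, read 0.52, 1.17 and 2.71 against 0.168 and 0.303 (log2 -1.9 ± 0.5, adjusted p = 0.0312; -1.36 and 0.173). In all 5 genes bottom replicate 3 was the highest array, and each of the calls was also lost without top replicate 1 (adjusted p from 0.193 to 0.437). Those of OsMST3 (0.0773 and 0.106), OsChia1c (0.0938 and 0.0633) and OsAOX1A (0.0625 and 0.0593) were lost without bottom replicate 2 and without top replicate 2 too, and that of salT without top replicate 2 (0.0893).

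Other called sugar genes lay on the bottom side. OsCIN1 (LOC4329561), a cell wall invertase that splits sucrose outside the cell, read 0.568, 0.733 and 1.34 in the bottom part and 0.159 and 0.238 in the top part (log2 -1.56 ± 0.27, adjusted p = 0.00272; -1.25 and 0.0122 without bottom replicate 3; 0.104 without top replicate 1). OsSUS4 (LOC4332788), a sucrose synthase, read 5.77, 4.95 and 3.76 against 1.79 and 2.37 (log2 -1.16 ± 0.24, adjusted p = 0.00769; -1.32 and 0.00796; 0.201 without top replicate 1). OsSUS3 (LOC4343910), the seed-type sucrose synthase, pointed to the top part without passing, at 36.7, 17.7 and 3.7 against 48.4 and 31.0 (log2 1.51 ± 0.55, adjusted p = 0.11, against 0.6 and 0.544 without bottom replicate 3), and its arrays overlapped. The sucrose carrier OsSUT1 (LOC4331775) read 1.26, 1.4 and 1.41 against 3.42 and 2.72, without overlap and without a call (log2 1.1 ± 0.39, adjusted p = 0.103, against 1.12 and 0.242 without bottom replicate 3). OsSWEET11, a sugar exporter of the caryopsis, was high in both parts, at 71.1, 58 and 72.1 against 77.5 and 80.8 (log2 0.24 ± 0.26, adjusted p = 0.645). Of 24 genes of sucrose transport and cleavage, 4 were lower in the top part and none higher, against 1.87% and 4.84% of all genes (median -0.16). With bottom replicate 3 left out 2 were lower (median -0.0809), against 0.871% of all genes. Without bottom replicate 1 there were 5 lower and 2 higher, in a fit that called 1182 of 29332 probe sets lower and 2348 higher. No call of this list held without top replicate 1.

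On the top side the differences were smaller, apart from 3 genes without a name. LOC4347709 read 1.18, 2.02 and 0.362 in the bottom part and 21.8 and 23.5 in the top part (log2 4.35 ± 0.65, adjusted p = 0.00109; 3.76 and 0.00482 without bottom replicate 3). It kept its call in every leave-one-out fit. LOC4348121 read 1.66, 0.817 and 0.242 against 8.75 and 5.15 (log2 3.0 ± 0.46, adjusted p = 0.00128; 2.4 and 0.00384), and LOC4348122 read 3.17, 1.65 and 0.148 against 9.25 and 4.98 (log2 2.56 ± 0.62, adjusted p = 0.0199; 1.52 and 0.0478). Both calls were lost without top replicate 1 (adjusted p = 0.0645 and 0.298). These genes are next to each other on chromosome 10 in the RefSeq table, and a further probe set is paired with both and with another gene, so their signals may be shared.

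Called genes of the top side included photosynthesis genes and other genes of plastid enzymes. OsrbcS (LOC4351966), the small subunit of Rubisco, the carbon-fixing enzyme, read 3.79, 3.06 and 1.21 in the bottom part and 14.6 and 10.8 in the top part. The groups did not overlap (log2 2.31 ± 0.37, adjusted p = 0.00182; 1.84 and 0.00593 without bottom replicate 3; 0.0727 without top replicate 1), and 2 further probe sets of the gene gave smaller differences (0.67 and 1.37). RCABP69 (LOC4343583), a chlorophyll a/b-binding protein, read 10.8, 12.1 and 3.25 against 27.2 and 19.2 (log2 1.58 ± 0.4, adjusted p = 0.024; 0.99 and 0.106 without bottom replicate 3; 0.31 without top replicate 1). OsGLN2 (LOC4337272), the plastid glutamine synthetase, read 3.44, 2.66 and 1.62 against 8.12 and 6.75 (log2 1.54 ± 0.26, adjusted p = 0.00264; 1.26 and 0.0122; 0.091 without top replicate 1). GSA (LOC4346136), an enzyme of the route to chlorophyll and heme, read 4.46, 3.98 and 2.7 against 9.59 and 7.36 (log2 1.18 ± 0.22, adjusted p = 0.0041; 0.97 and 0.0215; 0.148 without top replicate 1).

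Of 10 photosynthesis genes tested, 3 were higher in the top part, against 4.84% of all genes, and all 10 differences were positive (median 1.16). In the fit without bottom replicate 3 only OsrbcS was called, against 1.3% of all genes (median 0.656), without bottom replicate 1 there were 5 calls, and without top replicate 1 none. The third called gene was PSB28 (LOC4326537), a photosystem II protein, at 1.55, 1.02 and 0.55 against 3.07 and 1.78 (log2 1.18 ± 0.29, adjusted p = 0.0216; 0.83 and 0.118). Bottom replicate 3 was low for most of the list, with a median deviation of -1.06 from the bottom group mean. The summed level of the 7 chlorophyll markers was 112, 110 and 30.3 on the bottom arrays and 197 and 176 on the top arrays. These are genes of green tissue such as the ovary wall, and the part of that tissue in the result was not tested.

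Cytosolic ribosomal proteins, which build the protein-making machinery, had the largest share of calls among the 34 lists. Of 18 genes tested, 13 were higher in the top part and none lower, where 4.84% of all genes were called higher. Their median log2 difference was 0.826, and all 18 were positive. RPS26 (LOC4327570), a protein of the small subunit, read 15.9, 15 and 15 in the bottom part and 39.6 and 31.5 in the top part (log2 1.2 ± 0.25, adjusted p = 0.00836; 1.19 and 0.0303 without bottom replicate 3). RPL18 (LOC4334651), of the large subunit, read 5.26, 4.99 and 2.11 against 9.71 and 9.22 (log2 1.28 ± 0.3, adjusted p = 0.0157; 0.87 and 0.0738; 0.056 without top replicate 2). Arrays did not overlap for 16 of the 18, against 22.5% of all genes. The gene named rps20 (LOC4340027), which the list did not hold, read 18.7, 15.5 and 13.3 against 45.2 and 36.0 (log2 1.36 ± 0.23, adjusted p = 0.00223; 1.24 and 0.0116), with 1.35 and 1.5 on its other probe sets. Leaving out 1 array gave 7 of the 18 called without bottom replicate 3 (median 0.748), 8 without bottom replicate 2, 10 without top replicate 2 and 16 without bottom replicate 1. In the fit without top replicate 1 none was called and rps20 was lost too (adjusted p = 0.0884), while the medians over the leave-one-out fits stayed between 0.738 and 0.988. The 18S control was also higher in the top part. At 3 DAP its values did not overlap between the parts, so 18S signal and part cannot be told apart there. The 18S signal was 0.2, 2.37 and 9.26 on bottom replicates 1, 2 and 3. The list's median deviation from the bottom group mean was 0.304, -0.106 and -0.148 on them. With the 18S signal as covariate the list's median difference was 0.877. That fit takes its 18S slope from the spread within all groups, so it does not separate 18S from part at 3 DAP. The part of 18S signal in the result was not tested.

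**Figure D3:**
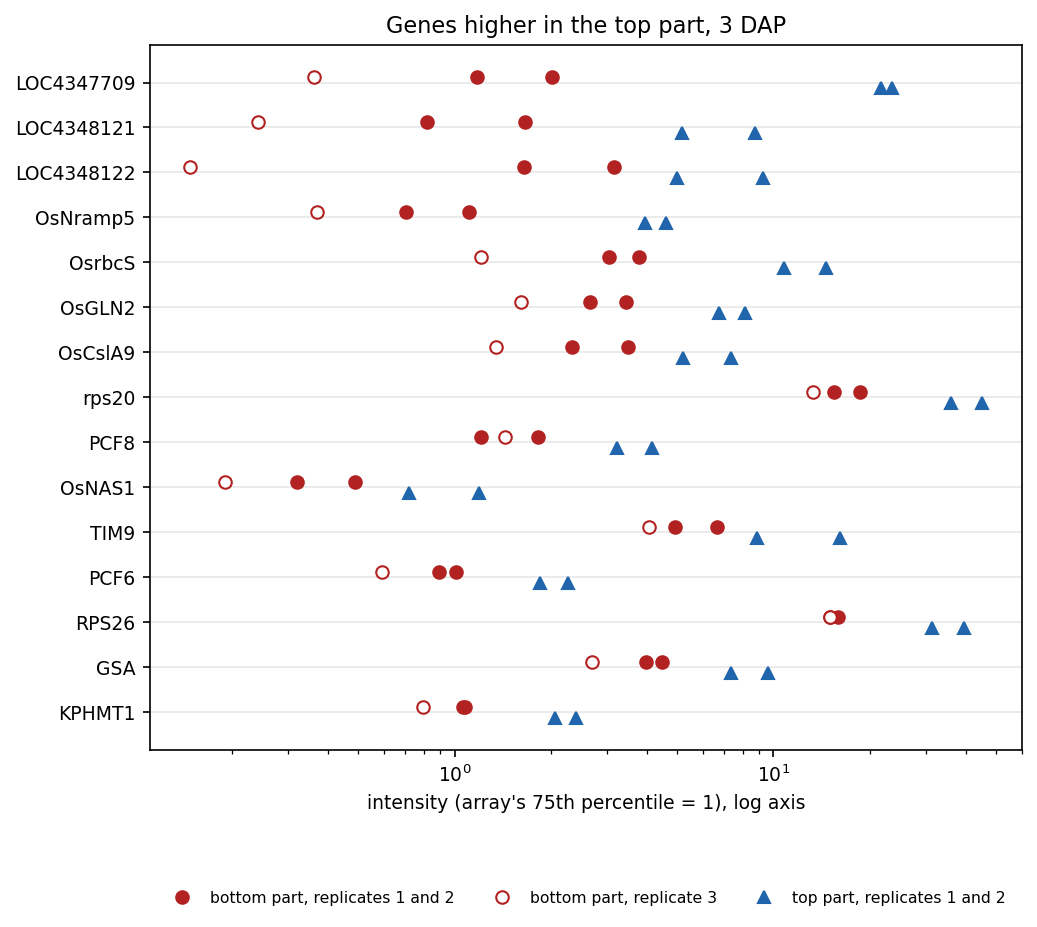
Intensity on a log x axis (the array's 75th percentile is 1) of the 15 genes of largest difference that were higher in the top part at 3 DAP, marked as in the plot of bottom-side genes. No gene has overlapping groups, which was a condition of their choice. Bottom replicate 3 (open circle) is the lowest bottom array for most of them, for example 0.148 for LOC4348122.

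Other named genes of the top side were of mixed function. PCF6 (LOC4334346) and PCF8 (LOC4352799) are TCP transcription factors, a family that acts on cell proliferation. PCF6 read 1.01, 0.895 and 0.592 in the bottom part and 1.86 and 2.27 in the top part (log2 1.21 ± 0.21, adjusted p = 0.00283; 1.01 and 0.0142 without bottom replicate 3), and PCF8 read 1.83, 1.21 and 1.44 against 4.16 and 3.24 (log2 1.24 ± 0.27, adjusted p = 0.0106; 1.23 and 0.0374). KPHMT1 (LOC4326739), an enzyme of pantothenate synthesis, read 1.08, 1.06 and 0.795 against 2.06 and 2.4 (log2 1.1 ± 0.19, adjusted p = 0.00264; 0.97 and 0.0141). PCF6 and KPHMT1 kept their calls in every leave-one-out fit (highest adjusted p 0.0402 and 0.0424, without top replicate 1), which PCF8 did not (0.214). OsCslA9 (LOC4341571), of the glucomannan synthase family, read 3.51, 2.33 and 1.35 against 7.37 and 5.21 (log2 1.42 ± 0.27, adjusted p = 0.00513; 1.08 and 0.022). OsNAS1 (LOC4332608), a nicotianamine synthase of metal chelation, read 0.487, 0.32 and 0.191 against 1.19 and 0.719 (log2 1.24 ± 0.24, adjusted p = 0.00505; 1.0 and 0.029). TIM9 (LOC4352583), a small chaperone of mitochondrial protein import, read 6.64, 4.91 and 4.08 against 16.2 and 8.87 (log2 1.21 ± 0.25, adjusted p = 0.00782; 1.06 and 0.041). These 3 calls were lost without top replicate 1 (adjusted p = 0.171, 0.202 and 0.274).

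Of 26 cytokinin genes, 3 were called higher in the top part, against 4.84% of all genes, and none of these calls held without bottom replicate 3. OsRRA19 (LOC4345758), a response regulator, read 0.678, 0.651 and 0.217 in the bottom part and 0.919 and 1.33 in the top part (log2 1.04 ± 0.29, adjusted p = 0.0373; 0.64 and 0.197). LOGL7 (LOC4339472), of the family that activates cytokinins, read 0.879, 0.882 and 0.477 against 1.66 and 1.3 (log2 0.91 ± 0.21, adjusted p = 0.0146; 0.66 and 0.0776). The third was OsAHP1 (LOC4346300), a phosphotransfer protein (log2 0.88 ± 0.22, adjusted p = 0.0214; 0.89 and 0.0618). The other 23 of the 26 tested were not called, and the median of the list was -0.18, on the opposite side of the called genes. All 3 calls were also lost without top replicate 1 (adjusted p = 0.161, 0.262 and 0.379), that of OsRRA19 without top replicate 2 (0.219) and that of OsAHP1 without bottom replicate 2 (0.0705). In the fit without bottom replicate 1, 3 genes of the list were higher and 3 lower in the top part, where 2348 and 1182 of 29332 probe sets were.

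Of 29 DNA replication genes, 2 were called higher in the top part, where 4.84% of all genes were. OsRFC2 (LOC4351654), a clamp loader subunit, read 1.71, 1.84 and 1.46 in the bottom part and 3.6 and 3.09 in the top part (log2 0.95 ± 0.26, adjusted p = 0.0329; 0.87 and 0.131 without bottom replicate 3). OsORC1 (LOC4340349), of the origin recognition complex, read 0.619, 0.444 and 0.541 against 1.08 and 1.0 (log2 0.82 ± 0.23, adjusted p = 0.0378; 0.83 and 0.105). The remaining 27 were not called, 28 of the 29 differences were positive, and arrays did not overlap for 20 of them, against 22.5% of all genes. Neither call held without bottom replicate 2 (adjusted p = 0.0509 and 0.106), bottom replicate 3, top replicate 1 (0.322 and 0.31) or top replicate 2 (0.0703 and 0.0947). In the fit without bottom replicate 1 there were 6 calls, all higher in the top part, where 2348 of 29332 probe sets were called higher. The list's median stayed between 0.466 and 0.787 in the leave-one-out fits, with 0.608 for all arrays. None of 12 mitosis genes (median 0.344, and 0.233 without bottom replicate 3) or 5 histone H2B genes (median 0.314, and 0.486) was called.

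The labels describe the top part as mainly endosperm, but none of the 9 endosperm markers tested was called at this stage. Their summed level, with the 5 untested markers, was 53.5, 30.5 and 18.4 on the bottom arrays and 62.9 and 46.3 on the top arrays, which overlap. Wx (LOC4340018), which synthesises amylose in starch granules, read 6.68, 0.85 and 0.169 in the bottom part and 8.87 and 1.57 in the top part. Replicate 1 was the highest array in both parts, and the parts overlapped (log2 1.63 ± 0.79, adjusted p = 0.234, against 0.6 and 0.838 without bottom replicate 3). SSII-3 (LOC4340567, also ALK), a soluble starch synthase of the endosperm, read 3.23, 1.77 and 0.752 against 6.5 and 4.38, without overlap and without a call (log2 1.62 ± 0.54, adjusted p = 0.083, against 1.11 and 0.395 without bottom replicate 3). AGPS2, a subunit of the enzyme that makes the starch precursor ADP-glucose, read 14.9, 6.31 and 4.06 against 20.2 and 13.6 (log2 1.17 ± 0.39, adjusted p = 0.083; 0.76 and 0.409). None of 7 starch genes was called (median 0.646, and 0.191 without bottom replicate 3).

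Seed storage proteins differed in level. Of 14 endosperm markers found, 9 passed the filter on low values. The glutelin probe sets GLUA1, GLUA3 and GluC read between 0.0466 and 0.138 on all 5 arrays. GLB1 (LOC4337720), a globulin, read 4.49, 4.19 and 3.33 in the bottom part and 4.75 and 5.26 in the top part, without overlap and without a call (log2 0.32 ± 0.25, adjusted p = 0.486, against 0.2 and 0.875 without bottom replicate 3). No marker of the maternal nucellus was called either. OsMADS29, a factor of nucellar breakdown, read 6.14, 4.06 and 2.41 against 9.01 and 7.0 (log2 0.99 ± 0.37, adjusted p = 0.115; 0.66 and 0.493). The summed level of the 4 nucellus markers was 78.3, 63.7 and 55.1 against 106 and 94.4, so it was higher on both top arrays than on any bottom array. Most of it came from OsAsp1, at 65.2, 54.0 and 48.5 against 90.3 and 81.9. OsVPE1 overlapped, at 6.68, 5.44 and 3.97 against 6.52 and 5.33, and REP1 did not pass the filter.

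The bottom part is labelled as holding the embryo. Of 11 embryo markers found, 5 passed the filter and OSH1 alone was called. Of the others tested, OSH6 (log2 -0.5) and OsVP1 leaned to the bottom part, and OsWOX13 (0.46) and ROC1 (0.25) to the top part. OsVP1, an abscisic acid response factor of the embryo, read 0.329, 0.391 and 0.459 against 0.215 and 0.246 (log2 -0.53 ± 0.23, adjusted p = 0.19, against -0.44 and 0.526 without bottom replicate 3). The WUSCHEL-type genes QHB, OsWOX4, OsWOX6, OsWOX7, OsWOX10 and OsWOX11 did not pass the filter, and none of their 3 DAP values exceeded 0.571. OSH1 was also higher in the unpollinated bottom part, at a mean of 20.9 against 0.345 (log2 -5.46, adjusted p = 9.92e-12). Its bottom-part mean at 1 DAP was close to that before pollination. It then fell to 9.65, 4.94 and 3.76 at 2, 3 and 4 DAP. OsMADS16, a marker of floral remnants, had bottom-part means of 35.7 before pollination and 14.7, 7.17, 3.98 and 3.87 at the 4 stages after it. The other floral markers did not share its side throughout, since DL (0.56), OsMADS58 (0.68) and OsMADS4 (0.39) had positive log2 differences that were not called. The summed level of the 6 carpel wall and floral markers was 55.8, 46.0 and 27.4 against 56.7 and 41.3, which overlap, and the shares of embryo and floral tissue in the bottom part were not tested. Among 7 markers of pedicel vascular tissue, OsSUS4 and OsNIP2;1 were called, both on the bottom side. The others were not called: OsSUT1 (log2 1.1) and OsSUS3 (1.51) were positive, and OsSUS1 (-0.35), OsSUS2 (-1.07) and HMA2 (-0.72) negative. The summed level of the 7 was 119, 95.3 and 128 against 94.2 and 84.7.

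Defence proteins had the lowest list median, -1.52 (-1.13 without bottom replicate 3), and 2 genes of 12 called lower, against 1.87% of all genes. Besides OsChia1c this was PBZ1 (LOC4352491), a pathogenesis-related protein, at 59.3, 57.0 and 75.3 in the bottom part and 8.45 and 41.1 in the top part. Its top arrays stood far from each other (log2 -1.75 ± 0.48, adjusted p = 0.0361; 0.137 without bottom replicate 3, 0.0627 without bottom replicate 2 and 0.667 without top replicate 1). Chib3H-a (LOC4351194), a chitinase, read 1.3, 6.63 and 79.9 against 0.235 and 1.38, and its arrays overlapped (log2 -3.63 ± 1.88, adjusted p = 0.272, against -2.07 and 0.778 without bottom replicate 3). No gene of this list was called without bottom replicate 3.

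The remaining lists had at most 2 calls each, among them OsGLN2, OsNIP2;1 and OsCslA9, given above. Over all genes tested, 1.87% were called lower and 4.84% higher in the top part. In the longer lists 1 lower call is near that share. Lower in the top part were IAA12 of 53 auxin genes (log2 -1.24 ± 0.34, adjusted p = 0.0372; 0.203 without bottom replicate 3), OsHsp22.3 of 42 heat shock genes (-1.17 ± 0.21, adjusted p = 0.00389; 0.0142) and OsIDS1 of 6 metallothioneins (-0.86 ± 0.2, adjusted p = 0.015; 0.0392). Endoglucanases, enzymes of cell wall change, were split, with OsGLU8 lower (-1.23 ± 0.32, adjusted p = 0.028; 0.00858) and OsGLU12 higher (1.13 ± 0.25, adjusted p = 0.0121; 0.0658) in the top part. Each of these 5 calls was lost without top replicate 1 (adjusted p from 0.0942 to 0.229), and those of IAA12 (0.247), OsIDS1 (0.0862), OsGLU8 (0.1) and OsGLU12 (0.0576) without top replicate 2. That of OsIDS1 was also lost without bottom replicate 2 (0.0506), and that of OsGLU8 without bottom replicate 1 (0.0576) or 2 (0.05). No gene was called among seed allergens and inhibitors, ovule, nucellus and carpel factors, Polycomb and DNA methylation genes, endosperm transcription factors, cell death proteases, cell wall loosening genes, lipid transfer proteins, WRKY factors, peroxidases and germins, hemoglobins, abscisic acid and late embryogenesis genes or ethylene genes. For lipid transfer proteins and cell wall loosening genes the median moved from 0.737 to 0.143 and from 0.34 to 0.0533 when bottom replicate 3 was left out. OsGER3 (LOC4344838), a germin-like protein, was called only without that array, at 36.7, 35.6 and 2.03 in the bottom part against 4.95 and 2.09 (log2 -2.08 ± 0.84, adjusted p = 0.151; -3.43 and 0.00397 without it).

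**Figure D4:**
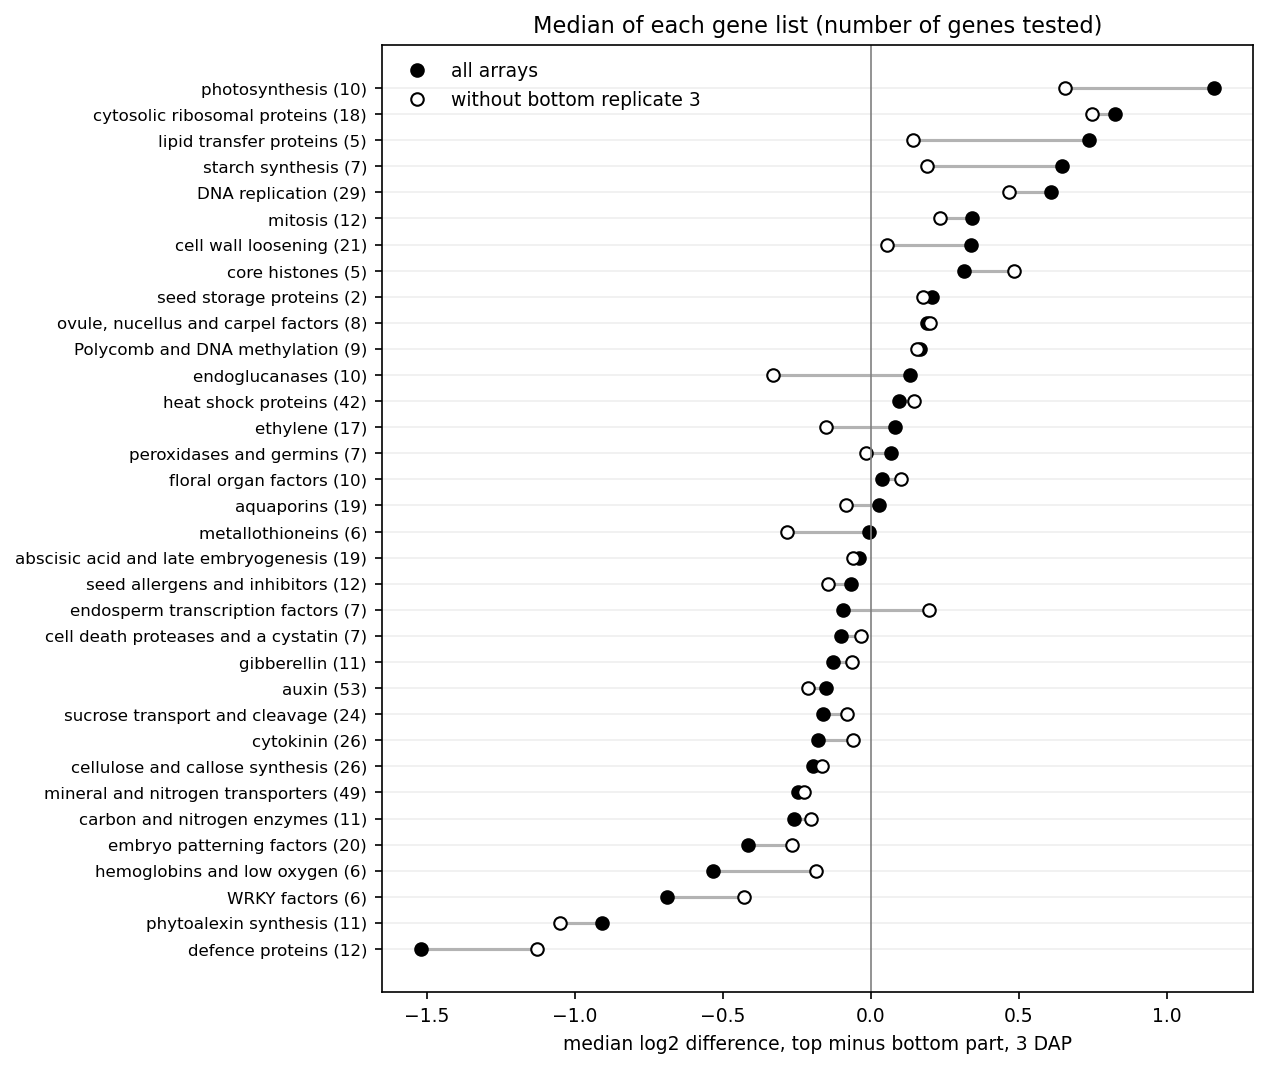
Median log2 difference, top minus bottom part at 3 DAP (x axis), of each gene list with the number of genes tested in brackets, with all arrays (filled) and without bottom replicate 3 (open). Photosynthesis (1.16) and cytosolic ribosomal proteins (0.826) lie highest and defence proteins (-1.52) and phytoalexin synthesis (-0.909) lowest, and the median of all genes is 0.0547.

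How far the part difference of 3 DAP was present at other stages was asked next. The stages share no arrays, but they share the estimate of spread. Of the 286 genes lower in the top part at 3 DAP, 119 (41.6%) were also called lower there at 4 DAP and 116 (40.6%) at 2 DAP, where 1.51% and 1.38% of all genes were. These are 51.7% of the genes called lower at 4 DAP and 55.0% of those at 2 DAP. Of the 740 genes higher in the top part, 110 (14.9%) were called higher at 4 DAP and 33 (4.46%) at 2 DAP, against 1.2% and 0.38% of all genes, and these are 59.8% and 56.9% of the genes so called at those stages. No gene was called in opposite directions at 3 DAP and at 2 or 4 DAP. With bottom replicate 3 left out, 115 of 133 lower genes (86.5%) and 81 of 198 higher genes (40.9%) were shared with 4 DAP, against 2.08% and 2.46% of all genes. For 2 DAP these were 100 (75.2%) and 35 (17.7%), against 1.87% and 0.733%.

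Unpollinated parts already differed for many of the same genes. Of the 286 lower genes, 140 (49.0%) were called lower in the top part before pollination, against 10.8% of all genes, and of the 740 higher genes 193 (26.1%) were called higher, against 8.43%. Opposite calls were 2 and 12. With bottom replicate 3 left out, 79 of 133 lower genes (59.4%) and 76 of 198 higher genes (38.4%) were shared, against 12% and 10.5% of all genes. OSH1, OSH71, OsMADS16, OsMADS2, OsGLO3, OsNIP2;1, OsPht1;8, Hd3a and LOC4325318 were called lower in the top part before pollination, and OsNramp5, OsrbcS, OsGLN2, PCF8, PCF6, OsCslA9 and KPHMT1 were called higher. The difference between the stages was itself called for 1177 probe sets (4.01%) between 3 DAP and the unpollinated stage, 929 (3.17%) shifted toward the top part and 248 (0.845%) toward the bottom part. In the fit without bottom replicate 3 there were 816 (2.78%), 673 (2.29%) and 143 (0.488%) in those directions, while leaving out top replicate 1 gave 354 and bottom replicate 1 gave 1782.

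The largest such shifts among named genes were in the neighbouring LOC4348121 and LOC4348122. LOC4348121 had means of 2.24 in the bottom and 0.262 in the top part before pollination, 0.352 and 1.86 at 2 DAP, and 0.906 and 6.95 at 3 DAP. Its part difference turned from -2.58 to 3.0 (difference 5.58 ± 0.62, adjusted p = 1.96e-05; 4.98 and 1.28e-05 without bottom replicate 3). LOC4348122 turned likewise from -2.72 to 2.56 (5.28 ± 0.83, adjusted p = 0.000779; 4.24 and 6.3e-05). LOC4347709 had top-part means of 0.121 before pollination and 2.42, 16.2, 22.7 and 4.83 at 1, 2, 3 and 4 DAP (difference of part differences 4.6 ± 0.87, adjusted p = 0.00387; 4.01 and 0.0106). OsNAS1 (1.44 ± 0.32, adjusted p = 0.012) also shifted toward the top part, with top means of 0.121 before pollination, 0.952 at 3 DAP and 1.62 at 4 DAP.

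Toward the bottom part shifted LOC4352487 (-3.23 ± 0.74, adjusted p = 0.015; 0.0406 without bottom replicate 3), OsNAR2.2 (-1.46 ± 0.31, adjusted p = 0.00866; 0.0221) and OsAMT1;1 (-2.16 ± 0.57, adjusted p = 0.0354; 0.0815). OsNAR2.2 had bottom means of 0.341 before pollination and 2.22, 1.49, 1.19 and 0.95 at 1 to 4 DAP, while its top means stayed between 0.198 and 0.322. The phytoalexin list had a median part difference of -0.103 before pollination and -0.85, -1.38, -0.909 and -1.36 at 1 to 4 DAP. At 4 DAP 8 of its 11 genes were called lower in the top part, against 1.51% of all genes. The ribosomal list had medians of 0.424, 0.237, 0.418, 0.826 and 0.536 over the same stages. Of its 18 genes, 4 were called higher before pollination (8.43% of all genes), 13 at 3 DAP (4.84%) and 1 at 4 DAP (1.2%). None was at 1 DAP (1.51%) or 2 DAP (0.38%). For no gene of either list was the 3 DAP difference called as different from that before pollination. The 3 DAP difference itself was not called as different from that of 4 DAP for any gene.

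Against the neighbouring days few calls were made. Between 3 and 2 DAP, 2 probe sets (0.00682%) were called, 1 in each direction (0.00341%), and 3 (0.0102%) without bottom replicate 3, and between 3 and 4 DAP none was (0%), where limma gave 1126 and 932 probe sets of 29332 an unadjusted p under 0.05. The called gene was LOC4332568, whose part difference was -3.61 at 2 DAP and -0.45 at 3 DAP (difference 3.16 ± 0.49, adjusted p = 0.0382), and it was not called without bottom replicate 3. The other probe set is paired with no gene here and moved from 2.0 to -0.08 (difference -2.08 ± 0.25, adjusted p = 0.00189; 0.00299 without bottom replicate 3). Both were named after their values were seen.

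**Figure D5:**
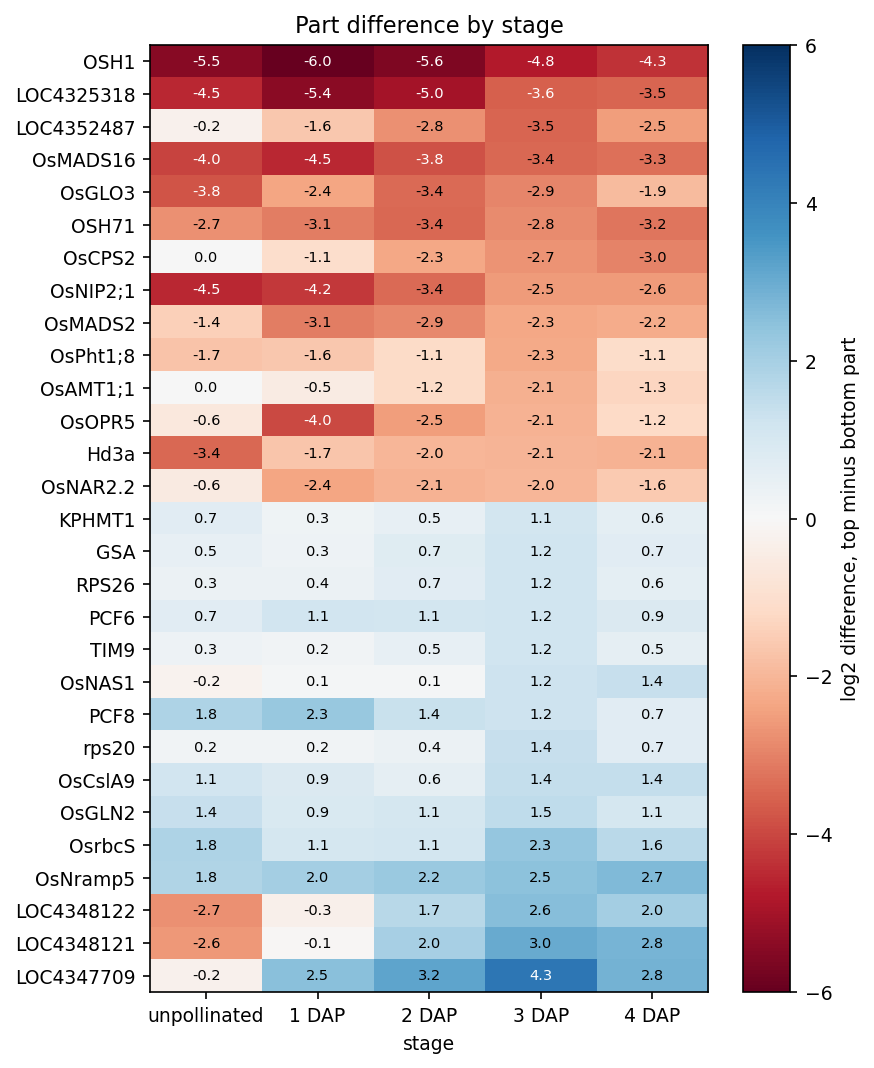
Part difference (log2, top minus bottom, colour and number) of the 29 genes of largest difference at 3 DAP, by stage. OSH1 and OsMADS16 are lower in the top part at every stage, while LOC4348121 and LOC4348122 turn from -2.58 and -2.72 before pollination to 3.0 and 2.56 at 3 DAP.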

How the data were processed

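Intensities were the deposited values of 57381 probe sets, on a linear scale and divided by each array's 75th percentile, as seen from the values. The submitters' processing notes name GCOS 1.3. How probes were summarised and background removed is not stated in what was used here. Of 57258 rice probe sets, 29332 averaged more than 0.264 (the median value) across the 27 arrays and were tested as log2(value + 0.13). The pseudocount of 0.13 was the rounded 20th percentile of all rice values. R 4.3.3 with limma 3.58.1 (lmFit on 10 group means, eBayes with an intensity trend) had 17 residual and 3.68 prior degrees of freedom, and the 2 top arrays borrowed the spread of the other groups. Tests were two-sided. The fitting step was tested on simulated data. The number of arrays limits the precision.

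Names came from a probe table (22436 rice probe sets with 1 gene, 95 with several, 34727 with none) and a RefSeq gene table, where all 17905 genes were found. A name meant a symbol or synonym other than a locus number, which 2156 of 15275 tested genes had. The RefSeq table (ASM3414082v1) gave chromosomes and which genes are neighbours; no coordinates are given, because no build was named for the array. Probe sets of gene families may share signal.

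Members, lists and tests were chosen with earlier results of these data known. The 34 lists were taken by patterns on names, leaving out 64 matches whose name showed another family, salT among them after its value was seen. Genes named were the 12 largest named differences per direction and the 3 largest of any gene, among those called with and without bottom replicate 3 whose arrays did not overlap, the 2 largest called of each list with 3 or more calls, and 5 whose call was lost without bottom replicate 3. Other list members are given as values. Alternatives covered the arrays, pseudocount, filter, normalization, spread model, replicate number, 18S signal and choice of probe set, and those that also leave out bottom replicate 3 were added after seeing the data. No pair of arrays was identical.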

Additional observations from a re-analysis of the deposited data

Results flagged for a closer look

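For 8 named genes the part difference at 3 DAP differed from that before pollination in limma's test of the difference. It was larger toward the top part by 5.58 for LOC4348121, 5.28 for LOC4348122, 4.6 for LOC4347709, 1.44 for OsNAS1 and 1.17 for rps20 on the log2 scale. It was larger toward the bottom part for LOC4352487 (-3.23), OsAMT1;1 (-2.16) and OsNAR2.2 (-1.46). Without bottom replicate 3 the adjusted p was 0.0819 for rps20 and 0.0815 for OsAMT1;1, so those 2 shifts were no longer called, and the other 6 were. Outside the main measurement, the 18S ribosomal RNA control was 23.9 on top replicate 1 and 25.4 on top replicate 2 at 3 DAP, above the highest unpollinated array (12.7). Such values were not confined to these arrays. Bottom replicate 3 of 4 DAP read 33.6, and top replicate 2 of 2 DAP and top replicate 3 of 4 DAP each read 18.8. The 2 groups compared have 2 and 3 arrays, too few to test for an outlying array.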

How the results depend on the processing

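None of the 38 named genes turned its direction under any alternative run. Their 3 DAP arrays did not overlap between the parts, so leaving out arrays or changing the pseudocount or filter could not turn it. Some list medians near 0 changed sign. Without bottom replicate 3, for example, endoglucanases went from 0.133 to -0.329 and endosperm transcription factors from -0.0931 to 0.197. The main count of 1572 probe sets (1111 higher, 461 lower in the top part) ranged from 70 to 3530 when 1 array of 3 DAP was left out (21 to 2348 higher, 49 to 1182 lower). It was 717 (415 and 302) without the 3 bottom replicates 3 of 2, 3 and 4 DAP, 937 (633 and 304) with no filter, 19 (0 and 19) with the 5 arrays alone, 5734 (3737 and 1997) with array weights and 2440 when 18S was a covariate (1764 higher). The array weights did not converge and gave 1 array a weight of 74.6. Without bottom replicate 3 the count of 541 became 317 with no filter, 217 with the 4 remaining arrays alone and 863 with array weights, and 58 to 547 when a further array was left out (328, 58, 63 and 547). Of these calls 59.5% were higher in the top part, against 44.2% with no filter, 46.9% with quantile normalization, 6.45% with the 4 arrays alone (14 higher, 203 lower), 15.5% without bottom replicate 2 (9 and 49) and 4.76% without top replicate 1 (3 and 60). With all arrays it was 70.7%, and 57.9% without the 3 arrays. The difference from the unpollinated stage (1177) was 674 with the stricter filter, 2182 with array weights and 354 to 1782 without 1 array. The 2 probe sets against 2 DAP became 5 without the 3 arrays, 0 and 4 with pseudocounts 0.03 and 0.5, 1 with the stricter filter, 34 with array weights and 1 to 3 without 1 array.

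With the replicate number as a block (replicate block) 1717 probe sets were called (1205 and 512), and all 38 named genes kept their call. The labels do not say that numbers pair samples, and deviations of same-numbered arrays correlated at 0.314 and 0.132. Those of top replicate 1 with bottom replicates 2 and 3 correlated at -0.132 and -0.165. For top replicate 2 with bottom replicates 1 and 3 they were -0.314 and 0.165. Deviations of the 2 top arrays mirror each other, so these values cannot decide on pairing. Of the 38, 29 kept their call without bottom replicate 3 and 2 with the 5 arrays alone. The 29 was set by the choice of genes. Those of largest difference had to be called without that array, and 5 others were chosen for losing their call.

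List medians that moved by more than the spread between arrays were those of seed storage proteins (0.322 with the stricter filter, 0.34 with the replicate block, -0.105 with 18S), sucrose genes (-0.0809 without the 3 arrays, 0.00223 with array weights), embryo patterning factors (-0.236 with pseudocount 0.5, -0.101 with the stricter filter), phytoalexin genes (-0.472 and -2.2 likewise), WRKY factors (-0.139 with array weights), metallothioneins (-0.284 without the 3 arrays, -0.373 with array weights) and, with the stricter filter, peroxidases (-1.01), transporters (-0.436) and ethylene genes (0.536). Leaving out 1 array gave -0.291 to -0.0809 for sucrose genes, 0.208 to 0.517 for core histones, -1.31 to -0.429 for WRKY factors and -0.284 to 0.165 for metallothioneins. The stricter filter and no filter change the genes tested, and leaving arrays out lowers their number; otherwise the cause was not tested.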
